A study of Homo sapiens with 14 samples.

Results

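Krüppel-like factor (KLF) genes encode zinc-finger transcription factors, and 10 of them, KLF3, KLF4, KLF5, KLF6, KLF7, KLF9, KLF10, KLF11, KLF13 and KLF16, were taken by symbol from the 58780 genes of the deposited count matrix. The rule was a list of family symbols and used no measured value, but it was set with earlier results of these data known. The list does not cover the whole family, and KLF2 and KLF15, among others, are outside it. All 10 passed the filter on low counts that left 21910 genes for testing. Nascent transcription was measured by PRO-seq, in which engaged RNA polymerases in permeabilized cells run on with labelled nucleotides, in A549, an established human lung adenocarcinoma line. The compounds were GSK591, an inhibitor of the symmetric arginine methyltransferase PRMT5, MS023, an inhibitor of the type I enzymes, which place asymmetric dimethyl marks, and the synthetic glucocorticoid dexamethasone (Dex). The 14 libraries form 7 groups of 2: untreated cells, which carry the 15 min label, GSK591 for 15 min, MS023 for 15 min, GSK591 with Dex for 15 min, MS023 with Dex for 15 min, GSK591 for 3 h and MS023 for 3 h. Inhibitors were used at 1 µM and Dex at 100 nM, and all groups carried 0.01% DMSO. Dex without an inhibitor and untreated cells at 3 h are not analysed here, so each Dex effect below is one measured on top of an inhibitor, and each 3 h group is set against cells labelled 15 min.

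KLF proteins share a C-terminal domain of zinc fingers that binds GC-rich and CACCC elements, and they differ in the N-terminal regions that recruit cofactors. KLF4, KLF5, KLF6 and KLF7 are mostly described as activators that bind acetyltransferases. KLF9, KLF10, KLF11, KLF13 and KLF16 carry a short helix that binds the corepressor SIN3A, and KLF3 represses through the CtBP corepressors. Several members are immediate or hormone-responsive genes, and KLF9 is a widely described glucocorticoid-induced gene, including in lung epithelium.

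Sequences just before the gene start are shown for KLF6, KLF9 and KLF13. KLF6 and KLF9 had the largest Dex effects, and KLF13 had the largest rise at 3 h. These sequences come from the RefSeq promoter table (GRCh38.p14) and are written 5′ to 3′ on the gene's own strand. GC boxes (GGGCGG on either strand) and CACCC boxes (CACCC on either strand) are in capitals. In KLF13 the CACCC box overlaps a GC box.
KLF6 (chr10:3785282-3785459, minus strand): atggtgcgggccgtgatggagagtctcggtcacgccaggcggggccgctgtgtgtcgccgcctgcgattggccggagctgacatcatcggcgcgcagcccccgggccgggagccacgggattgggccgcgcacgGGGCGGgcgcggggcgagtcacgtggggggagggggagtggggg
KLF9 (chr9:70414658-70414907, minus strand): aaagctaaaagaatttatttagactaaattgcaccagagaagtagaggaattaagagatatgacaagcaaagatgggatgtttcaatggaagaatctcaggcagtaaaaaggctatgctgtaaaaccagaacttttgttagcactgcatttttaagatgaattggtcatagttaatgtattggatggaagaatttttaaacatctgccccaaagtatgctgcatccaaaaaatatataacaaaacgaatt
KLF13 (chr15:31326585-31326834, plus strand): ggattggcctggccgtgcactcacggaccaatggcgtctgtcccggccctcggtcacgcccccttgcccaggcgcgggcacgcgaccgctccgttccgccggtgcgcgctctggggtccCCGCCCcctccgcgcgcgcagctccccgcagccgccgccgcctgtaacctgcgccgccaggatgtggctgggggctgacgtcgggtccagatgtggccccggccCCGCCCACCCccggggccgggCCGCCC
The KLF9 stretch is 32.4% G and C and holds neither box, while that of KLF13 is 78.8% G and C with 3 GC boxes and 1 CACCC box. The 178 bases shown for KLF6 are 76.4% G and C with 1 GC box. Of 35116 human promoter windows of the same 250 bases, 42.6% hold a GC box and 54.7% a CACCC box. A glucocorticoid response element, searched on both strands as the half-sites GNACA and TGTNC with 3 bases between them, was in 0.327% of those windows and in none of the 13 windows found for 8 of the 10 members. This says only that these letters are not in the windows searched. KLF3 and KLF10 had no entry in the table.

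Libraries held 5768312 to 9606938 counted reads, of which 39.8% to 58% were mitochondrial, and the members together held 2220 to 5245 reads per library. The pair given GSK591 with Dex differed most, with a chi-square of 13.9 per degree of freedom against 2.08 in the untreated pair, so no library was a copy of another. Epithelial keratins marked the line (KRT8 at 259 to 353 CPM, KRT18 at 119 to 178), whereas EPCAM and CDH1 stayed at or under 4.09 and 3.46 CPM. Of the alveolar type II markers, SFTPB was at 12.3 to 17.3 CPM and ABCA3 at 13.8 to 24.8, while SFTPC reached 4.29 and NKX2-1 0.459 CPM. Of the leukocyte genes, CD68 reached 3.37 and PTPRC 0.141 CPM, and CD3E had no read. The fibroblast gene COL1A1 was at 4.83 to 7.88 CPM, while COL1A2 and DCN reached at most 0.215 and 0.15. The endothelial markers PECAM1, VWF and CDH5, with at most 10 reads in any library, were too low to test. Of 5 tested markers of alveolar type II cells, leukocytes and fibroblasts, 0 were called in any of the 13 comparisons by edgeR (5 of 65 values at an unadjusted p under 0.05). Over all 21910 genes tested, 1319 to 5328 had such an unadjusted p, depending on the comparison. Of 5 epithelial markers, EPCAM was higher (1.16 ± 0.35) and KRT19 lower (-0.70 ± 0.15) with Dex beside MS023, and KRT18 was higher at 3 h than at 15 min of MS023 (0.44 ± 0.10); their part in the results below was not tested. The labels do not say whether replicates were separate cultures, so p-values measure the spread between these libraries only, and a change in the share of transcribing cells cannot be told apart from a change per cell.

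In untreated cells the members spanned a wide range of levels per kilobase of exon. KLF6 stood highest at 17.8 ± 0.85 reads per kilobase of exon on the CPM scale (RPKM; SD, n = 2 here and for every group below). KLF5 followed at 10.6 ± 0.63, KLF10 at 9.86 ± 0.68, KLF7 at 7.88 ± 0.46 and KLF4 at 5.11 ± 0.38 RPKM. KLF11 lay at 3.19 ± 0.04, KLF13 at 2.61 ± 0.041, KLF16 at 2.60 ± 0.64, KLF3 at 2.01 ± 0.038 and KLF9 at 1.81 ± 0.097 RPKM. The libraries of KLF5 and KLF10 overlapped, as did those of KLF13 and KLF16; all other neighbours in this order were apart in both libraries. KLF6 kept the highest level in the group given MS023 with Dex, at 39.8 ± 4.7 RPKM. These levels take reads as counted within exons, which is not given in the sources used here.

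**Figure D1:**
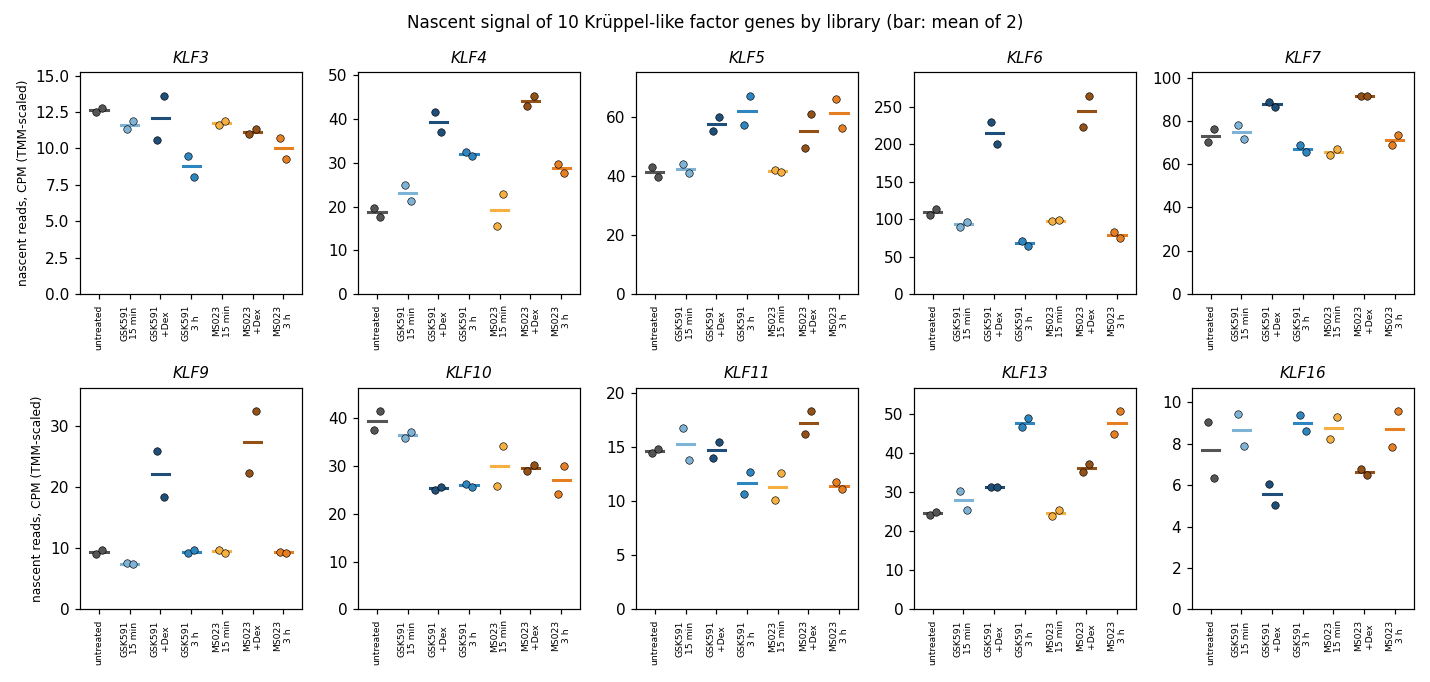
Nascent reads of each member in CPM (reads scaled to TMM library size; y axis from 0, its own scale per gene) in the 7 groups; points are libraries and bars the mean of 2. KLF6 and KLF9 are high only in the 4 libraries given Dex, KLF13 is highest in the 4 libraries at 3 h, and KLF4 is raised in both sets.

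Dex added to an inhibitor for 15 min raised 4 of the 10 members with both inhibitors, KLF4, KLF5, KLF6 and KLF9. The calls of KLF5 did not hold with DESeq2. Beside GSK591, 5 members passed an adjusted p of 0.05 (4 higher, 1 lower), against 3.70% of all genes tested (1.43% higher, 2.27% lower). Beside MS023 7 passed, all higher, against 8.97% of all genes (5.90% higher, 3.07% lower). The members' median log2 fold change was 0.195 beside GSK591 and 0.52 beside MS023, where the median of all genes was -0.0043 and -0.0156. The 2 comparisons share no library, and 8 of the 10 members had the same sign in both. These 8 include KLF10, which was at -0.01 ± 0.13 beside MS023. The shares of all genes called higher in both, or with the same sign in both, were not computed.

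Among the activators, KLF6 had the highest reads of any member after Dex. This gene (ENSG00000067082.14, chromosome 10, 3775996 to 3785281, minus strand, GRCh38) is described as broadly expressed and quickly induced by many stimuli. It stood at 90.0 and 96.7 CPM with GSK591 and at 230 and 201 CPM with GSK591 and Dex. With MS023 it stood at 97.2 and 99.2 CPM, and with MS023 and Dex at 224 and 265 CPM. All 4 libraries with Dex were above all 10 others. On the log2 scale KLF6 rose by 1.21 ± 0.10 beside GSK591 (SE here and after every log2 change; edgeR adjusted p 3.1e-11; 2.31-fold) and by 1.32 ± 0.10 beside MS023 (adjusted p 8.8e-13; 2.49-fold).

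KLF4, a factor of epithelial differentiation and pluripotency (chromosome 9, 107484852 to 107490482, minus strand), went from 25.0 and 21.2 CPM to 41.7 and 37.0 CPM beside GSK591. Beside MS023 it went from 15.5 and 22.8 CPM to 43.0 and 45.3 CPM. The groups did not overlap in either comparison. The rise was 0.77 ± 0.13 on the log2 scale (edgeR adjusted p 0.00026) beside GSK591 and 1.23 ± 0.13 (adjusted p 1.1e-08) beside MS023. KLF5, a factor of epithelial proliferation (chromosome 13, 73054976 to 73077542, plus strand), rose by less, from 44.0 and 40.8 to 55.0 and 59.8 CPM beside GSK591 and from 42.0 and 41.3 to 49.4 and 60.9 CPM beside MS023. Its log2 changes were 0.44 ± 0.12 (adjusted p 0.022) and 0.41 ± 0.11 (adjusted p 0.018). KLF7, known for its part in neuronal development (chromosome 2, 207074137 to 207167267, minus strand, 93.1 kb), rose beside MS023, from 64.3 and 67.1 CPM to 91.5 CPM in both libraries (0.48 ± 0.10, adjusted p 0.00055). Beside GSK591 it was 78.1 and 71.8 CPM without Dex and 88.8 and 86.6 CPM with it, a log2 difference of 0.23 ± 0.10 that did not pass (adjusted p 0.20).

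Among the SIN3A-binding members, KLF9 had the largest Dex effect of the 10. It lies on chromosome 9, 70384597 to 70414624, minus strand, and was the least abundant member per kilobase in untreated cells. KLF9 stood at 7.54 and 7.39 CPM with GSK591 and at 25.9 and 18.4 CPM with GSK591 and Dex. With MS023 it stood at 9.73 and 9.31 CPM, and with MS023 and Dex at 22.4 and 32.4 CPM. The lowest library with Dex was above every library without it, although the Dex pairs were far apart. KLF9 rose by 1.57 ± 0.19 beside GSK591 (edgeR adjusted p 3.3e-07; 2.97-fold) and by 1.52 ± 0.17 beside MS023 (adjusted p 3e-08; 2.87-fold).

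The other SIN3A-binding members differed from KLF9. KLF10, first described as a gene induced early by TGF-β (chromosome 8, 102648779 to 102655902, minus strand), fell beside GSK591, from 35.9 and 37.0 CPM to 25.0 and 25.6 CPM (-0.53 ± 0.13, edgeR adjusted p 0.013). Beside MS023 KLF10 was 25.8 and 34.2 CPM without Dex and 28.9 and 30.3 CPM with it, so the groups overlapped (-0.01 ± 0.13, adjusted p 0.99). KLF11, its close relative (chromosome 2, 10042849 to 10054836, plus strand), rose beside MS023, from 10.1 and 12.6 to 16.2 and 18.3 CPM (0.62 ± 0.16, adjusted p 0.009), and was at 16.8 and 13.8 against 14.0 and 15.5 CPM beside GSK591. KLF13, a factor known from T lymphocytes (chromosome 15, 31326855 to 31435665, plus strand, 109 kb), rose beside MS023, from 23.9 and 25.5 to 35.2 and 37.3 CPM (0.56 ± 0.12, adjusted p 0.0012). Its change beside GSK591 was 0.16 ± 0.12 (adjusted p 0.55). KLF16 and KLF3 were not called; KLF16, the least counted member with 33 to 89 reads per library, gave -0.63 ± 0.23 (adjusted p 0.12) and -0.39 ± 0.21 (adjusted p 0.31).

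**Figure D2:**
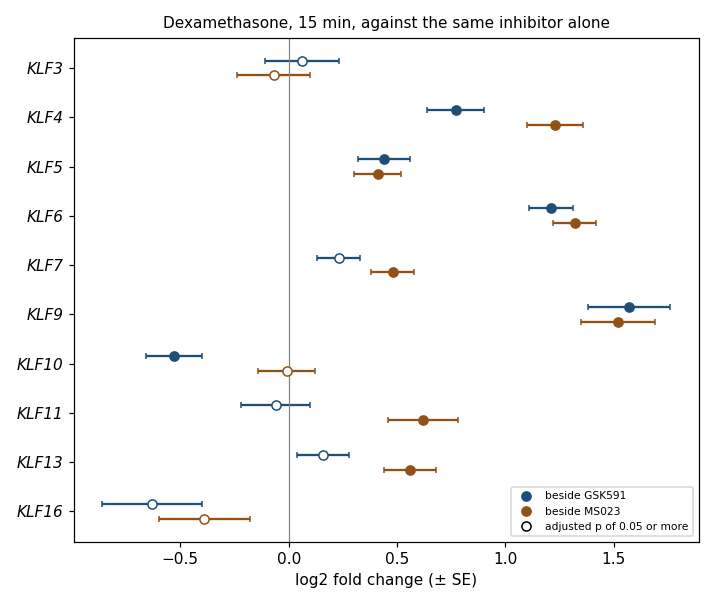
Log2 fold change (x axis, ± SE) of each member when Dex was added to GSK591 (blue) or MS023 (brown) for 15 min; filled points passed an adjusted p of 0.05. KLF9 and KLF6 lie between 1.21 and 1.57 with both inhibitors, and KLF10 is below 0 with GSK591 and at -0.01 with MS023.

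The calls of KLF4, KLF6 and KLF9 held under every alternative tried in both comparisons, while those of KLF5 in both, of KLF10 beside GSK591 and of KLF11 beside MS023 were lost with DESeq2; KLF10 also lost its call beside GSK591 when any 1 of the 4 libraries compared was left out, and KLF5 when any of 3 of the 4 was, beside each inhibitor. Scaling by library size alone, which put the median of all genes at -0.208 and -0.19, left KLF4, KLF6 and KLF9 as the members called higher with each inhibitor, and without MS023 15 min replicate 1 the 7 members called beside MS023 became 4 and the 1966 genes called became 641.

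The interaction term asked whether a member's Dex effect differed between the inhibitors. No member passed with edgeR or DESeq2, against 1.15% of all genes with edgeR (252 genes, but 8 without MS023 15 min replicate 1 and 31 without GSK591 15 min replicate 1), and 4 members had an unadjusted p under 0.05. Over all 21910 genes tested, 2360 had an unadjusted p under 0.05 for this term. The lowest p of a member was for KLF11, whose Dex effect was lower beside GSK591 by 0.68 ± 0.23 on the log2 scale (-0.68, edgeR p 0.0049, adjusted p 0.16). KLF10 gave -0.52 ± 0.18 (adjusted p 0.19), KLF4 -0.46 ± 0.19 (adjusted p 0.32) and KLF13 -0.39 ± 0.17 (adjusted p 0.36). For KLF6 the difference was -0.11 with a 95% interval of -0.39 to 0.17, and for KLF9 it was 0.05 with an interval of -0.48 to 0.57. The calls that KLF7, KLF11 and KLF13 had beside MS023 alone are therefore not shown to be particular to MS023. Without MS023 15 min replicate 2, KLF4 and KLF10 passed (2 members).

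Against untreated cells, which both comparisons share, KLF4, KLF5, KLF6 and KLF9 were higher with each inhibitor and Dex. GSK591 with Dex had 5 members called (background 5.85%), and MS023 with Dex had 7 (background 7.66%). How many of all genes were called in both was not computed. KLF9 changed by 1.24 ± 0.18 and 1.55 ± 0.17, KLF6 by 0.98 ± 0.10 and 1.16 ± 0.10, KLF4 by 1.07 ± 0.14 and 1.24 ± 0.13, and KLF5 by 0.48 ± 0.11 and 0.42 ± 0.11 on the log2 scale. KLF10 was lower in both, by -0.64 ± 0.13 (edgeR adjusted p 0.0011) and -0.42 ± 0.12 (adjusted p 0.024). KLF7 (0.33 ± 0.09) and KLF13 (0.56 ± 0.12) were higher with MS023 and Dex. KLF11, which was called against MS023 alone, was not called against untreated cells (0.24 ± 0.15, edgeR adjusted p 0.43). The authors' deposited table gives 1.18 and 1.49 for KLF9, 0.93 and 1.11 for KLF6 and 1.15 and 1.31 for KLF4 in these comparisons, all called there. In the authors' deposited table KLF5 (adjusted p 0.18 and 0.24) and KLF10 (0.06 and 0.32) were not called in either comparison, nor were KLF7 (0.58) and KLF13 (0.16) with MS023 and Dex. With DESeq2, 4 members were called for MS023 with Dex.

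Genes known to be induced by glucocorticoids checked that Dex acted in these libraries. PER1 rose by 1.89 ± 0.13 beside GSK591 and 1.91 ± 0.12 beside MS023, and TSC22D3, which encodes GILZ, by 1.72 ± 0.12 and 1.89 ± 0.11. FKBP5 (1.23 ± 0.21 and 1.10 ± 0.21) and DUSP1 (0.77 ± 0.11 and 1.07 ± 0.11) rose as well, so KLF9 and KLF6 lay within the range of these 4 genes.

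After 15 min of an inhibitor alone, no member passed with edgeR or DESeq2, against 0.306% of all genes with GSK591 and 0.183% with MS023. At an unadjusted p under 0.05 there were 1501 of 21910 genes with GSK591 and 1770 with MS023, and 2 members with each. With GSK591 these were KLF4 (0.30 ± 0.14, edgeR adjusted p 0.68) and KLF6 (-0.23 ± 0.10, adjusted p 0.65). With MS023 they were KLF10 (-0.41 ± 0.12, adjusted p 0.23) and KLF11 (-0.39 ± 0.16, adjusted p 0.53). With MS023, a fit of just these groups called 1 member, KLF10, as did scaling by nuclear library size alone.

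After 3 h the members moved in both directions. KLF4, KLF5 and KLF13 were higher than in untreated cells with each inhibitor, and KLF6 and KLF10 were lower. How many of all genes were called with both inhibitors was not computed. GSK591 gave 6 members called (3 higher, 3 lower; background 11.0%, of which 7.25% higher and 3.79% lower) and MS023 gave 5 (3 higher, 2 lower; background 7.63%, of which 5.40% higher and 2.23% lower), with both comparisons sharing the untreated libraries. The members' median log2 fold changes were -0.055 and -0.025, beside -0.00842 and -0.0113 for all genes.

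KLF13 had the largest change of any member at 3 h. It stood at 24.3 and 24.9 CPM in untreated cells, 46.8 and 48.9 CPM after GSK591 and 44.9 and 50.7 CPM after MS023. The lowest of the 4 libraries at 3 h was above all 10 others. Its log2 fold change was 0.96 ± 0.11 with both inhibitors (edgeR adjusted p 5e-08 and 7.6e-08), and the authors' deposited table gives 0.95 for each, called in both. KLF4 went from 19.7 and 17.7 CPM to 32.4 and 31.5 CPM with GSK591 (0.77 ± 0.13, adjusted p 7.2e-05) and to 29.8 and 27.7 CPM with MS023 (0.62 ± 0.14, adjusted p 0.002). KLF5 went from 43.0 and 39.5 CPM to 57.0 and 67.0 CPM with GSK591 and to 66.0 and 56.2 CPM with MS023, and its log2 changes were 0.58 ± 0.11 and 0.57 ± 0.11 (adjusted p 0.00045 with MS023).

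KLF6 moved the other way. Its libraries were at 106 and 113 CPM in untreated cells, 70.3 and 64.8 CPM after 3 h of GSK591 and 82.3 and 75.5 CPM after 3 h of MS023. The fall was -0.69 ± 0.10 (edgeR adjusted p 5.3e-06) and -0.47 ± 0.10 (adjusted p 0.0019) on the log2 scale. KLF10 was at 37.5 and 41.4 CPM in untreated cells and at 26.2 and 25.7 CPM with GSK591 (-0.60 ± 0.12, adjusted p 0.00056). With MS023 KLF10 was at 24.1 and 29.9 CPM (-0.56 ± 0.12, adjusted p 0.0021). KLF3, the CtBP-binding repressor (chromosome 4, 38664196 to 38701042, plus strand), fell with GSK591, from 12.5 and 12.8 to 9.50 and 8.02 CPM (-0.52 ± 0.17, adjusted p 0.038), and with MS023 was at 10.7 and 9.28 CPM (-0.33 ± 0.17, adjusted p 0.27).

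KLF9 was not called at 3 h, and it stood at 9.18 and 9.77 CPM with GSK591 and 9.38 and 9.28 CPM with MS023, against 9.03 and 9.74 CPM in untreated cells. Its log2 differences were 0.01, with a 95% interval of -0.38 to 0.41, and -0.01, with an interval of -0.41 to 0.39. KLF7 (-0.12 ± 0.10 and -0.04 ± 0.10), KLF11 (-0.33 ± 0.16 and -0.35 ± 0.16) and KLF16 (0.23 ± 0.20 and 0.17 ± 0.20) were not called. The call of KLF3 was lost with DESeq2 and without any 1 of the 4 libraries compared. In the authors' deposited table KLF4 (adjusted p 0.078) and KLF10 (0.09) were not called with MS023, while both were with GSK591. Without untreated replicate 2, or without MS023 3 h replicate 1, fewer members were called with MS023. In the first of these fits KLF6 and KLF10 both lost their calls with MS023.

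Set against 15 min of the same inhibitor, which leaves out the untreated libraries, KLF13 rose by 0.78 ± 0.11 with GSK591 (edgeR adjusted p 1.3e-05) and 0.95 ± 0.12 with MS023 (adjusted p 8.9e-08). KLF5 rose by 0.55 ± 0.11 and 0.56 ± 0.11, and KLF4 by 0.47 ± 0.13 and 0.62 ± 0.14. KLF6 fell with both (-0.47 ± 0.10 and -0.31 ± 0.10, adjusted p 0.0039 and 0.041), and KLF10 fell with GSK591 (-0.49 ± 0.12, adjusted p 0.011) but was not called with MS023 (-0.15 ± 0.13, adjusted p 0.54). In all, 5 members were called with GSK591 (background 6.41%) and 4 with MS023 (background 12.0%). Those numbers were 3 and 3 with DESeq2 and 2 and 2 with library size alone, and without GSK591 15 min replicate 2 the first was 1. Without MS023 15 min replicate 1 the second was 2, and KLF6 lost its call with MS023 in 12 of the 14 fits that left out a library.

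**Figure D3:**
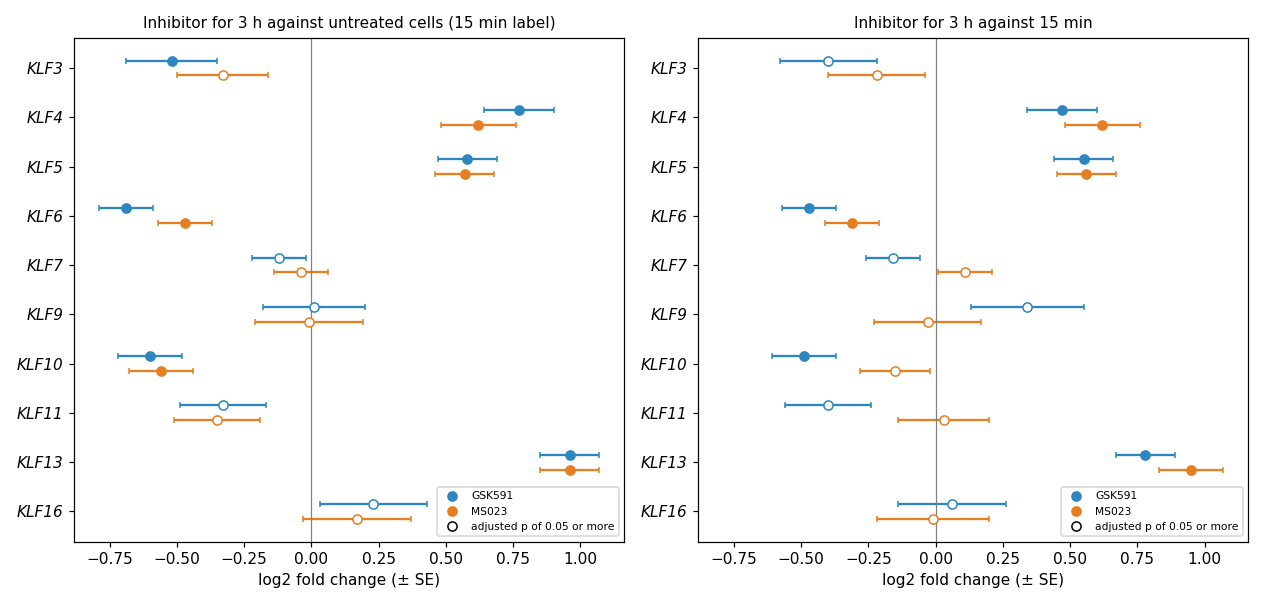
Log2 fold change (x axis, ± SE) of each member after 3 h of GSK591 (blue) or MS023 (orange), against untreated cells (left) and against 15 min of the same inhibitor (right); filled points passed an adjusted p of 0.05. KLF13, KLF5 and KLF4 are above 0 and KLF6 below 0 in both panels, with KLF13 between 0.78 and 0.96.

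The inhibitors were also set against each other at matched dose and time. In 2 direct comparisons of GSK591 with MS023, 0 members passed with edgeR or DESeq2, against 1.09% of all genes at 15 min and 0% at 3 h. At an unadjusted p under 0.05 there were 3 members at 15 min, led by KLF11 (0.45 ± 0.17, edgeR adjusted p 0.26), and 1 at 3 h, KLF6 (-0.23 ± 0.11, adjusted p 0.80). Over all 21910 genes tested, 2137 at 15 min and 1319 at 3 h had such an unadjusted p. For KLF13 at 3 h the 95% interval of the log2 difference was -0.21 to 0.22, and for KLF5 it was -0.21 to 0.23.

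Setting the Dex effect beside the 3 h effect of the same inhibitor, which share no library, separates the members. KLF6 was called in both comparisons with opposite signs, with GSK591 (1.21 and -0.69) and with MS023 (1.32 and -0.47). Its fall with MS023 was not called when untreated replicate 2 was left out. KLF4 and KLF5 were called higher in both comparisons with each inhibitor, and KLF13 was also higher in both with MS023. KLF9 was called with Dex and not at 3 h, and KLF10 was lower in both with GSK591. PER1 and TSC22D3 had the same signs as KLF6: they rose with Dex and were lower after 3 h, by -0.93 ± 0.15 and -0.71 ± 0.13 with GSK591 and by -0.73 ± 0.15 and -0.53 ± 0.13 with MS023. DUSP1 (-0.05 and 0.10) and FKBP5 (0.00 and -0.12) were not called at 3 h.

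**Figure D4:**
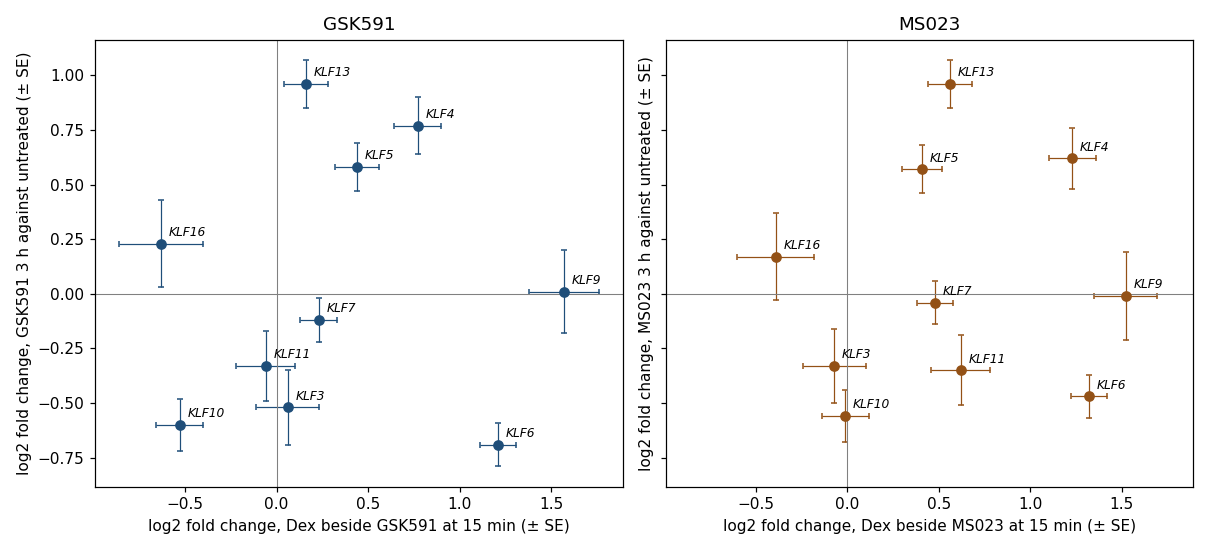
Each member's log2 fold change with Dex at 15 min (x axis, ± SE) against its log2 fold change after 3 h of the same inhibitor without Dex (y axis, ± SE, against untreated), for GSK591 (left) and MS023 (right). KLF6 sits at the lower right of both panels, KLF4 and KLF5 at the upper right, and KLF9 on the right at about 0 on the y axis.

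Across the 14 libraries, which fall into 7 groups and share treatments, the members' profiles were compared with those of 12131 named genes, as a description. KLF6 was most like TSC22D3 (Pearson's r of log2 CPM 0.99), MT2A (0.984) and PER1 (0.982), all known glucocorticoid-induced genes. KLF9 was most like ZFP36 (0.964), DUSP1 (0.96) and SEC14L2 (0.951). KLF4 was most like ERN1 (0.974), and KLF13 most like MAML1 (0.983), MKNK2 (0.98) and SIRT1 (0.973). KLF5 (RNF217, 0.933), KLF7 (SPRY2, 0.955), KLF11 (RPL8, 0.915) and KLF10 (TUBB, 0.894) had looser matches. Between members, KLF6 and KLF9 correlated at 0.92, KLF6 and KLF7 at 0.9 and KLF5 and KLF13 at 0.85, while KLF3 and KLF13 stood at -0.8.

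Of 17 other KLF and SP genes, 11 passed the filter. KLF8, KLF14, KLF17, KLF18, SP5 and SP8 had at most 4 reads in any library. Dex beside GSK591 had 1 of the 11 called (KLF15, lower; background 3.70%) and beside MS023 4 (KLF2, KLF15 and SP4 higher, SP7 lower; background 8.97%). KLF2, best known from endothelial and T cells, was at 56.8 and 50.1 CPM with GSK591 and 60.5 and 44.5 CPM with GSK591 and Dex, and went from 34.8 and 40.1 to 68.2 and 74.8 CPM beside MS023 (0.94 ± 0.12, edgeR adjusted p 2.9e-07). KLF15, another described glucocorticoid target, was already high with GSK591 alone, at 87.3 and 57.5 CPM against 26.3 and 30.7 CPM in untreated cells (1.34 ± 0.18, adjusted p 3e-05), a call lost without GSK591 15 min replicate 1. In the authors' deposited table KLF15 was not called after GSK591 for 15 min (1.23, adjusted p 1, with 0 genes called) or at 3 h (adjusted p 0.093 with GSK591 and 0.33 with MS023). Dex beside GSK591 lowered KLF15 to 49.8 and 42.2 CPM (-0.65 ± 0.18, edgeR adjusted p 0.028), which was lost with DESeq2 and without GSK591 15 min replicate 1 or the GSK591 and Dex replicate 2. With MS023 it was at 18.2 and 40.2 CPM and rose with Dex to 55.7 and 68.7 CPM (1.14 ± 0.19, adjusted p 3.5e-05). At 3 h KLF15 was at 65.7 and 81.6 CPM with GSK591 (1.37 ± 0.18) and 68.2 and 55.7 CPM with MS023 (1.13 ± 0.18). With edgeR the interaction term passed for both genes, at -1.79 ± 0.26 for KLF15 and -0.96 ± 0.17 for KLF2, whereas no member passed it.

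**Figure D5:**
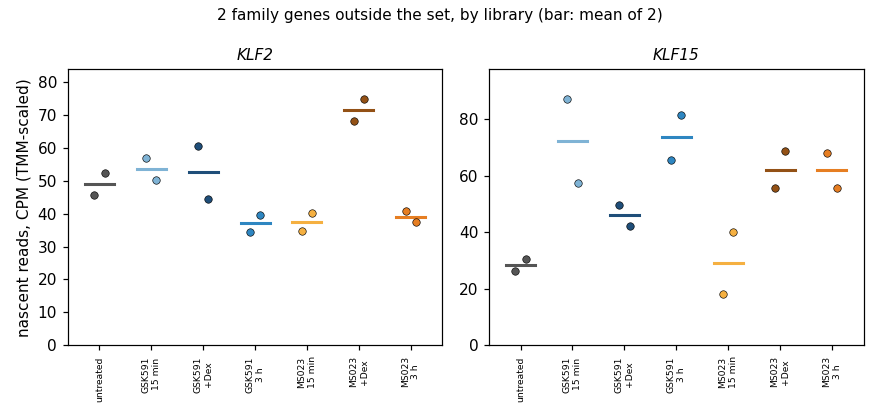
Nascent reads (CPM, TMM-scaled; y axis from 0) of KLF2 and KLF15 in the 7 groups; points are libraries and bars the mean of 2. KLF15 is higher with GSK591 at 15 min than in untreated cells, and both genes are higher with MS023 and Dex than with MS023.

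Of 12 cofactors of the family, 0 were called with Dex beside GSK591 by edgeR (background 3.70%). At an unadjusted p under 0.05 there were 3 cofactors, against 3658 of all 21910 genes tested. Beside MS023, 2 were called (background 8.97%): EP300 (0.38 ± 0.11, edgeR adjusted p 0.017), an acetyltransferase, and CTBP2 (0.32 ± 0.10, adjusted p 0.039), the corepressor that KLF3 binds. Both calls were lost with DESeq2. Of 8 upstream regulators, 0 were called beside GSK591 (3 at an unadjusted p under 0.05, against the same 3658 of 21910 genes). SMAD4 was higher (0.49 ± 0.15) and the kinase gene MAPK7 lower (-0.47 ± 0.11) beside MS023, and SMAD4 lost this call with DESeq2. At 3 h, 3 of the 8 were higher than in untreated cells with each inhibitor (background 7.25% higher with GSK591 and 5.40% with MS023), SMAD4 (0.67 ± 0.15 and 0.63 ± 0.15), MEF2A (0.71 ± 0.13 and 0.62 ± 0.14) and SRF (0.70 ± 0.15 and 0.65 ± 0.15). SIN3A, the corepressor of KLF9 and its relatives, ranged from 54.2 to 69 CPM over all libraries.

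Of 6 genes commonly given as KLF targets, CDKN1A, the cell cycle inhibitor p21, rose with Dex beside both inhibitors (0.66 ± 0.16 and 0.69 ± 0.15, edgeR adjusted p 0.0088 and 0.0015), calls lost with library size alone. PDGFA was lower with Dex beside GSK591 (-0.52 ± 0.14), and SMAD7 was higher beside MS023 (0.61 ± 0.11). At 3 h, 3 of the 6 were called with each inhibitor (background 11.0% with GSK591 and 7.63% with MS023). PDGFA (0.51 ± 0.13 and 0.61 ± 0.13) and SMAD7 (0.32 ± 0.11 and 0.58 ± 0.11) were higher with both, CCND1 was lower with GSK591 (-0.29 ± 0.09, edgeR adjusted p 0.035), and CDKN1A was higher with MS023 (0.64 ± 0.14). The CCND1 call was lost with DESeq2 and when any 1 of the 4 libraries compared was left out. With DESeq2 the calls of SMAD7 at 3 h of GSK591 and of PDGFA with Dex were lost as well.

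The exons of 7 members overlap no exon of another annotated gene. Overlap with the introns of other genes was not examined. KLF3, KLF11 and KLF16 share 4.22%, 9.07% and 16.3% of their exonic bases with a gene on the opposite strand (KLF3-AS1, AC104794.4 and AC012615.3). The strand setting of the counting is not given in the sources used here. In the shared bases, reads of these 3 members therefore cannot be told apart from those of their antisense partners.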

How the data were processed

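PRO-seq libraries of A549 cells, 7 groups of 2, were analysed from the gene counts the authors deposited. Per the submitters' processing notes, reads were counted with featureCounts 2.0.1 (Subread) on hg38; the aligner, counting feature, strand setting and duplicate handling are not given in the sources used here. All gene identifiers are those of GENCODE 29 (GRCh38). The authors also deposited DESeq2 tables of each treatment against control, which per the file headers give each gene's mean signal, log2 fold change, test score and p-value.

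The deposited counts were tested with edgeR 4.0.16 (R 4.3.3): TMM scaling, edgeR's expression filter, 1 quasi-likelihood fit of all 14 libraries with a coefficient per group (7 residual degrees of freedom, biological coefficient of variation 0.073), 13 contrasts, and Benjamini-Hochberg adjustment within each over 21910 genes. CPM values use TMM-scaled library sizes. Changes are relative to the bulk of genes, since no spike-in entered the scaling. Intervals are 95%. On simulated data for Dex beside MS023, functions were tested before use.

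All members are named; of each other list, counts and up to 3 called genes with the largest change per comparison, and for each member called with Dex the 3 genes most like it (mean of at least 5 CPM). Members and lists were chosen with earlier results of these data known. Alternatives were DESeq2 1.42.0, library size alone, nuclear library size (without mitochondrial genes) alone, no filter, only the groups compared, a replicate block, and leaving out each library.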

Additional observations from a re-analysis of the deposited data

Results flagged for a closer look

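The Dex effect differed between the inhibitors, by the interaction term, for 3 genes of the lists named here and for none of the 10 members; over all genes tested 252 passed, or 1.15%. For KLF15 the Dex effect beside GSK591 minus that beside MS023 was -1.79 ± 0.26 (SE, log2; edgeR adjusted p 0.00011), for KLF2 it was -0.96 ± 0.17 (adjusted p 0.0013), and for SMAD7 it was -0.92 ± 0.16 (adjusted p 0.00085). SMAD7 stood at 59.6 and 58.9 CPM with GSK591 and 50.2 and 45.1 CPM with GSK591 and Dex, and at 35.5 and 38.6 CPM with MS023 and 52.3 and 59.9 CPM with MS023 and Dex. Before Dex all 3 genes were already higher with GSK591 than with MS023 (KLF15 1.36 ± 0.19, KLF2 0.52 ± 0.12, SMAD7 0.68 ± 0.11). The part of that difference in the Dex effects was not tested. With DESeq2 the KLF15 difference was -1.75 (adjusted p 0.080), and without MS023 15 min replicate 1 those of KLF2 and SMAD7 were both -0.86 (adjusted p 0.071 and 0.052). Over all alternatives KLF15 ranged from -2.43 to -1.28, KLF2 from -1.21 to -0.76 and SMAD7 from -1.03 to -0.82.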

How the results depend on the processing

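Of the 44 member values called, each refitted under 20 alternatives, 785 of 880 refits kept call and direction, 95 lost the call and 0 reversed, and 22 of the 44 values held under every alternative. Of 1720 refits of the 86 values not called, 5 gained a call. Many of the refits left out a library in neither group compared, so they are not independent checks of that comparison. With DESeq2 the members called were 3 for Dex beside GSK591 (5 with edgeR), 4 for MS023 with Dex against untreated (7) and 3 for GSK591 at 3 h against 15 min (5). With library size alone they were 3 for Dex beside MS023 (7), 4 for MS023 with Dex against untreated, and 2 for 3 h against 15 min with GSK591 and 2 with MS023 (4). MS023 for 15 min against untreated gave 1 (0) with nuclear library size alone and 1 with only the groups compared; the causes were not tested. Leaving out 1 library gave 3 to 5 members for Dex beside GSK591, 4 to 7 beside MS023, 0 to 2 for the difference of Dex effects, 4 to 7 for MS023 with Dex against untreated, 2 to 5 for MS023 at 3 h against untreated, and 1 to 5 (GSK591) and 2 to 4 (MS023) for 3 h against 15 min.

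Over all genes, DESeq2 called 401 for Dex beside GSK591 (811 with edgeR), 1020 beside MS023 (1966), 70 for the difference (252), 27 after 15 min of GSK591 (67), 1251 and 917 at 3 h of GSK591 and MS023 against untreated (2419 and 1672). Library size alone turned 313 higher and 498 lower genes for Dex beside GSK591 into 98 and 1374, and 1293 and 673 beside MS023 into 533 and 1317. The labels do not say whether replicate numbers pair the samples. Over 21 pairs of groups the correlation of deviations ranged from -0.13 to 0.25 (median 0.012), with 7 above 0.1. These values do not settle whether some groups were paired. With the number as a replicate block, 5 members were called for Dex beside GSK591, 7 beside MS023, and 6 and 5 at 3 h of GSK591 and MS023, and no member's call changed. Leaving out 1 library gave 339 to 1007 genes for Dex beside GSK591, 641 to 2213 beside MS023, 8 to 490 for the difference, 1092 to 2786 for GSK591 and 834 to 1974 for MS023 at 3 h against untreated. Depth limits KLF16, the least counted member, with 33 to 89 reads per library.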
